A study of Caenorhabditis elegans with 2 samples.

Results

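The regions described here are the autosomal peaks of the TBP-like factor TLF-1 that lie between divergent genes of Caenorhabditis elegans. A peak was a member when its summit lay between -500 and +100 bp of the starts of 2 protein-coding genes on opposite strands that point away from each other. This held for 212 of the 1880 peaks in the authors' reproducible set, selected by irreproducible discovery rate and here called the IDR set, 1638 of which are on autosomes. Of the other autosomal peaks, 558 lay in the window of one coding start, 6 in the windows of several starts with no divergent pair, and 862 outside all such windows. Within the IDR set only annotation and summit position chose the members, so position within the window is bounded by the rule. Gene function and sequence were not used, and signal only as far as it decides entry to the IDR set.

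TLF-1 binding was mapped by chromatin immunoprecipitation and sequencing in whole young adults of 65.5 hours, grown after L1 starvation that followed bleaching, with the sexes pooled. All animals were of strain OP749, with an unc-119 (tm4063) background and the integrated transgene wgIs749, in which a tlf-1::TY1::EGFP::3xFLAG fusion is carried with unc-119(+) as marker. Sonicated chromatin was recovered through the GFP part of the tag by an anti-GFP antibody. The study has 2 biological replicates of this 1 group and no untagged strain, and 1 control file served both replicates. The tagged protein therefore stands for TLF-1 throughout, from 1 transgenic line, and a whole-animal sample does not show in which cells a peak arises. With a single group no test between conditions exists, and peaks or genes are not replicates of a condition, so results are given for the IDR set and, where they were computed, again for the 1880 strongest peaks of each replicate. The lists are not independent of each other, because the IDR set was derived from both replicates. The ranges in parentheses after shares are 95% Wilson intervals and reflect only counting error, since the read depth behind the peaks is unknown.

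TBP-like factors are relatives of the TATA-binding protein that lack its usual affinity for the TATA box and serve RNA polymerase II at a subset of promoters. In C. elegans the gene is needed for embryonic development, and in Drosophila the related factor TRF2 acts at ribosomal protein genes. In a divergent pair the genes are transcribed away from each other from one stretch of intergenic DNA, so a single peak can lie upstream of both. Many worm transcripts are also trans-spliced: a short leader replaces the first part of the transcript at a splice acceptor, and the annotated start of such a gene then marks the acceptor and not the place where transcription began.

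The sequences under some of the strongest peaks are shown first, because they carry words to which later results return. They are 6 of the 20 strongest peaks, read 5′ to 3′ on the plus strand of WBcel235 (RefSeq copy), with the gene on the minus strand to the left and the gene on the plus strand to the right. Each reaches 100 bp to either side of the summit, less where a start lies nearer, except the last, which gives the whole gap between starts less than 300 bp apart. Capitals mark E2F-like words (TTCCCGC or TTGGCGC or TTCGCGC or TTGCCGC) and the word GCGCCA, on either strand.
rpl-20 to Y17G9B.5, chrIV:4749981-4750181: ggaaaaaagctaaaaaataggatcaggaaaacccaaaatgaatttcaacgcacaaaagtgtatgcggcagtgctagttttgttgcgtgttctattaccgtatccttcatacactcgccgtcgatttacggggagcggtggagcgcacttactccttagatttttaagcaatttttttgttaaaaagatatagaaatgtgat
cct-8 to Y55F3AR.2, chrIV:1094262-1094462: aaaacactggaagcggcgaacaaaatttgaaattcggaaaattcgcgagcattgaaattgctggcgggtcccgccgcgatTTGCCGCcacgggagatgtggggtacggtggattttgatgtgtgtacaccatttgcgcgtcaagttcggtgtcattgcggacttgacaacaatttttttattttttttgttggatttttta
rpl-12 to lin-54, chrIV:13240652-13240769: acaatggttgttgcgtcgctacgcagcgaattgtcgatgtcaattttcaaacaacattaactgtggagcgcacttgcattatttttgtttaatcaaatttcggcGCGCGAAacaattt
tbb-1 to rib-2, chrIII:10742578-10742778: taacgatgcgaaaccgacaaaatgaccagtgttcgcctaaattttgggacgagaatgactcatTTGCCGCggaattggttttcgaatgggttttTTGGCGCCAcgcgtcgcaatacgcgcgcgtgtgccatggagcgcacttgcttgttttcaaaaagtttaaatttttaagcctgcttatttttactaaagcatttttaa
npp-3 to top-2, chrII:11874789-11874981: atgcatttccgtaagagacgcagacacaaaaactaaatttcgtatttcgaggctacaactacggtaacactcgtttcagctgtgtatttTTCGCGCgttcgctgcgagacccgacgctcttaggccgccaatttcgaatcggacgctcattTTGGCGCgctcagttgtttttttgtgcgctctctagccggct
rpl-7A to set-21, chrIV:4390591-4390843: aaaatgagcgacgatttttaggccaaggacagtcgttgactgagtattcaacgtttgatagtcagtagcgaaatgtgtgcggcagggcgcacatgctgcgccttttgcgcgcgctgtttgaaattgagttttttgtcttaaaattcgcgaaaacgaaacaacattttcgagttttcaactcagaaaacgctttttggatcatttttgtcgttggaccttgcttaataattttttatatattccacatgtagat
No capitals appear in the rpl-20 and rpl-7A sequences, while the tbb-1 summit lies within overlapping E2F-like and GCGCCA words. The stretch GAGCGCAC is in the rpl-20, rpl-12 and tbb-1 sequences and, on the other strand, in that of npp-3. Across all members it was in only 12 of 212 summit windows (5.66%). The 6 sequences are shown for the words they carry and do not represent the 20 strongest peaks.

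Divergent pairs held TLF-1 summits more densely than other promoter windows. The stretches shared by the windows of a divergent pair add up to 0.625 Mb and held 212 IDR summits, or 339 per Mb. The remaining coding start windows held 564 summits in 9.05 Mb, or 62.3 per Mb, and the rest of the autosomes 11.8 per Mb. The ratio of shared to other windows was 5.44 in the IDR set, 5.45 in replicate 1 and 5.47 in replicate 2. By definition, every base of a shared stretch lies in the windows of at least 2 starts. The ratio is therefore per length of sequence and not per start, and it was not adjusted for this. Members made up 27.3% of the 776 autosomal peaks in coding start windows (24.3 to 30.6%). Whether the shared stretches differ from other windows in chromatin accessibility was not tested.

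The autosomes have 1665 neighbouring divergent pairs whose starts lie at most 1000 bp apart with no other coding start between. Of these, 211 (12.7%, 11.2 to 14.4%) had an IDR summit in both windows, which is the background for all shares of pairs and of their genes. One pair, tim-1 and Y75B8A.23, had 2 such peaks, and 1 further member has as its nearest pair starts that are not neighbours. The pooled list, which is longer and not thresholded, had a summit in the shared windows of 329 of the 1454 pairs without an IDR peak there (22.6%). With the IDR pairs, 540 of 1665 pairs (32.4%) held a summit of the pooled list.

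Genes in divergent pairs had a summit in their own window more often than other genes, whether or not they belonged to one of 18 lists of cellular housekeeping and germline functions. Among listed genes, 203 of 709 in a divergent pair had an IDR summit in their own window (28.6%), against 177 of 1110 outside such pairs (15.9%). Among unlisted genes the counts were 271 of 2621 (10.3%) and 337 of 12802 (2.63%). In replicate 1 the 4 shares were 27.8% and 15% for listed genes and 10.3% and 2.62% for unlisted ones. Replicate 2 gave 26.1% and 15.3%, then 9.77% and 2.48%. A gene in a pair can owe its summit to a peak that serves its partner, since one summit counts for both. The genes outside such pairs are all remaining autosomal coding genes, including any with a divergent neighbour more than 1000 bp away. Whether each of them has a promoter at its annotated start was not examined.

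The share of pairs with a peak depended on how far apart the starts lie. It was highest for starts 301 to 400 bp apart, at 44 of 204 pairs (21.6%, 16.5 to 27.7%). It was 17% from above 200 to 300 bp, 18.9% for 401 to 500 bp and 17% for 501 to 600 bp. Pairs more than 100 and up to 200 bp apart had a lower share, 13 of 189 (6.88%, 4.06 to 11.4%), with 6.88% in replicate 1 and 6.35% in replicate 2. The closest pairs, up to 100 bp apart, had 8 of 53 (15.1%, 7.85 to 27.1%), an interval that overlaps that of the class next to it. Beyond 700 bp the share fell to 6.67% and then, from 801 bp, to 3 of 255 (1.18%), where the windows overlap little. Per kb of shared window the density was 0.38 above 200 and up to 300 bp and 0.35 for 601 to 700 bp, so over that range the number of summits followed the length of the shared stretch. From above 100 to 200 bp it was 0.19 per kb, the lowest of the classes below 800 bp, and for up to 100 bp it was 0.59. The median spacing was 398 bp in pairs with a peak and 494 bp in pairs without.

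**Figure D1:**
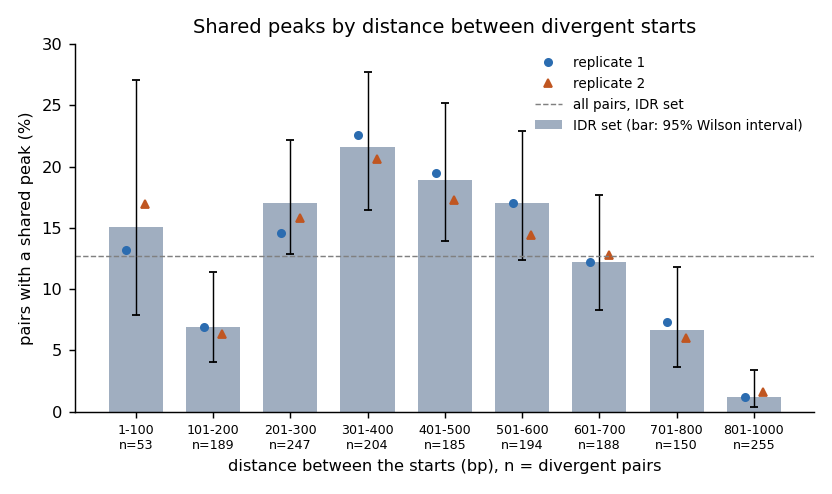
Share of autosomal divergent pairs with a shared TLF-1 peak (percent, vertical axis) by the distance between the starts (bp, horizontal axis, number of pairs given as n). Grey columns are the IDR set with 95% Wilson intervals, circles and triangles the strongest 1880 peaks of replicates 1 and 2, and the dashed line the 12.7% of all pairs. The columns are highest at 301 to 400 bp (21.6%) and lowest above 800 bp (1.18%), with a low column next to the left end, up to 200 bp (6.88%).

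Summits lay near the middle of the gap. Of the 212 members, 196 (92.5%, 88.1 to 95.3%) had the summit between the starts, and the rest had it up to 81 bp inside one of the genes. The median summit was 57.5 bp from the midpoint. On a scale from 0 at the minus-strand start to 1 at the plus-strand start, the median was 0.52 and the quartiles 0.39 and 0.67. The nearer start was a median of 141.5 bp away and the farther start 269.5 bp. The median was -221 bp to the minus-strand start and -189 bp to the plus-strand start, and 117 of 212 summits (55.2%, 48.5 to 61.7%) were nearer the latter. Peaks at one start had a median of -191.5 bp, between those values. Being within 500 bp of both starts restricts where a member's summit can lie, so these medians describe the members and are not set against chance. The peak itself reached both starts at 42 members (19.8%) and exactly 1 start at 86 (40.6%). The summit sat within 1 bp of the peak's centre in 142 of 212 members (67%) and in 424 of 558 peaks at one start (76.0%).

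**Figure D2:**
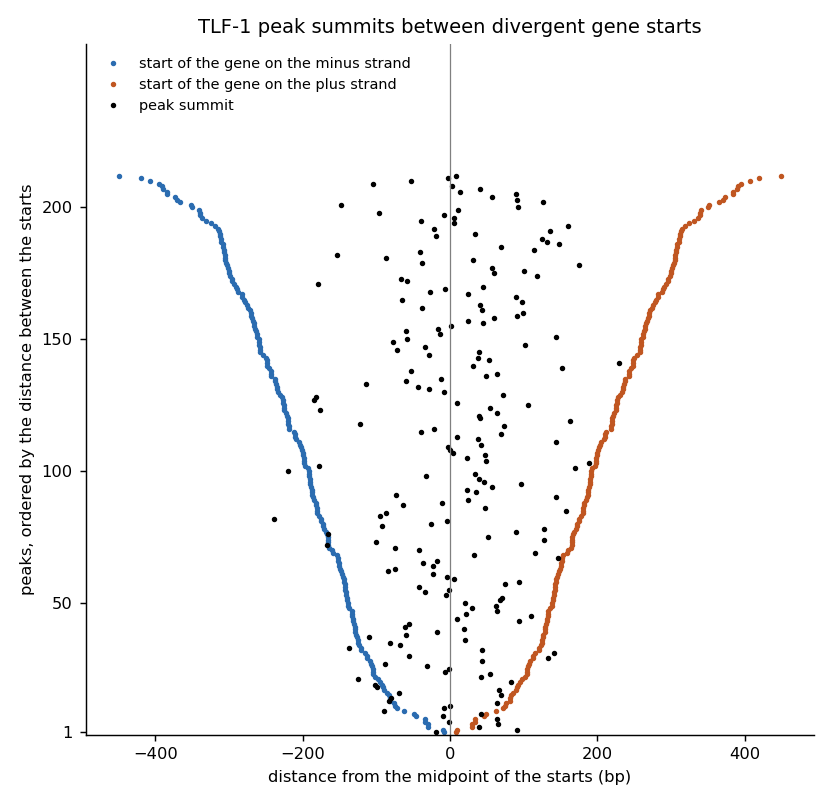
Position of the summit (black) against the starts of the gene on the minus strand (blue) and on the plus strand (orange) for each of the 212 members, ordered from the closest to the widest starts; the horizontal axis is the distance from the midpoint of the starts in bp. Summits scatter around the midpoint, a median of 57.5 bp from it, and 196 lie between the starts.

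Pairs at the ends of the range show what this means for single genes. The closest starts belong to F25H9.6, which encodes a flavoprotein domain protein, and F25H9.7, a succinate dehydrogenase assembly factor, and lie 15 bp apart on chromosome V; the summit was 12 bp inside the first gene and 27 bp upstream of the second. The starts of Y59E9AL.36 and nbet-1, a BET1 homologue of vesicle fusion, are 20 bp apart, with the summit 81 bp inside nbet-1. Those of Y57E12AL.6 and Y57E12AL.1 are 60 bp apart. The widest pair is sqv-3, a galactosyltransferase of proteoglycan synthesis, and vha-1, a proton pump subunit, with starts 900 bp apart and the summit at -458 and -442 bp. The starts of col-38, a cuticle collagen gene, and rpl-5 are 839 bp apart, with the summit at -417 and -422 bp, and those of rpl-15 and K11H12.8 are 814 bp apart, at -354 and -460 bp. At the limit of the window, epc-1 and Y111B2A.12 were just inside, with the summit at -500 bp from the second. A peak of signal 491 between ifet-1 and rps-1 was just outside, at -507 bp from ifet-1, and so was one between cyn-7 and bath-36, at -506 bp.

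The authors' signal value was somewhat higher at members than at peaks with one start. In the IDR set the values at the 212 members ran from 83.7 to 1277 with a median of 147 and quartiles of 105 and 220. Peaks at one start ran from 83.6 to 1738 with a median of 125 and quartiles of 100.2 and 186. The ratio of medians was 1.18, and it was 1.14 in the strongest peaks of replicate 1 (71.3 against 62.4) and 1.16 in those of replicate 2 (82.2 against 71.1). The ranges overlap almost wholly, and the lower end of the IDR set is set by its threshold. Members were 47 of the 188 strongest autosomal peaks and 212 of all 1638, while peaks at one start were 85 of the 188 and 558 of the 1638. Signal hardly followed spacing or the distance to the nearer start within the members, with a Spearman rho of 0.12 and 0.11 across 212 peaks of the same libraries.

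**Figure D3:**
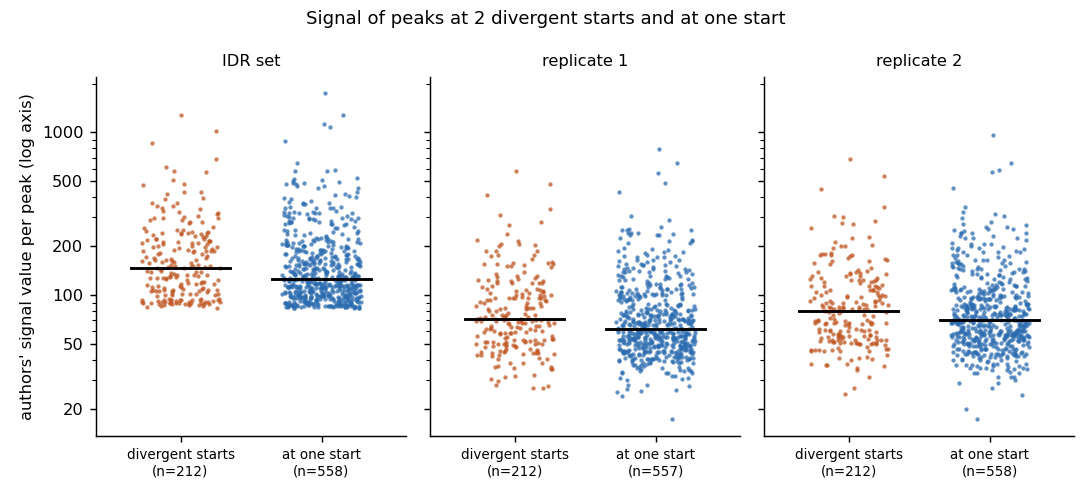
The authors' signal value (log axis, no stated unit) of each peak between divergent starts (orange) and at one start (blue) in the IDR set and of the same peaks in replicate 1 and replicate 2, with black lines at the medians. The medians are 147 and 125 in the IDR set, and the ranges overlap almost wholly in all 3 panels.

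The 20 strongest members were led by genes of translation, and the values of both replicates followed each other closely. The strongest had a signal of 1277 in the IDR set, 582 in replicate 1 and 688 in replicate 2. It lies between rpl-20, a protein of the large ribosomal subunit, and Y17G9B.5, annotated as a mitochondrial protein of Toll signalling, at -303 and -159 bp. The next, with 1018, then 482 and 539, lies between rpl-15 and K11H12.8, annotated as a growth hormone-inducible transmembrane protein. The peak between drr-2, a translation initiation factor of the eIF4H kind, and set-16, a histone methyltransferase of the MLL family, had 863, then 415 and 450. These 3 members ranked 3, 6 and 8 in the IDR set and no lower than 8 in either replicate.

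A second group had signals from 429 to 687. Here the peak between rps-19, of the small ribosomal subunit, and hsr-9, a homologue of the DNA damage protein 53BP1, had 687, then 337 and 346. The peak of cct-8, a chaperonin subunit that helps fold actin and tubulin, and Y55F3AR.2 had 615, then 310.0 and 306. The one between rpl-12 and lin-54, the DNA-binding subunit of the DREAM complex, had 579, then 269 and 304, with the summit 18 bp upstream of the rpl-12 start. The tubulin gene tbb-1 and rib-2, a heparan sulfate glycosyltransferase gene, shared a peak of 571, then 281 and 284. These 4 members held their order in the IDR set and in replicate 2, whereas in replicate 1 tbb-1 stood above rpl-12. The genes sec-61.B and trap-3, both of the translocon in the endoplasmic reticulum, shared one of 512. The remaining members of this group were rpl-7A with set-21 (481), lin-53, a histone-binding protein, with nra-2 (473), gpap-1 with scpr-1 (431), and npp-3, a nucleoporin, with top-2, DNA topoisomerase II (429).

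The others of the 20 ranged from 345 to 420.2. They were ndk-1 with F25H2.6, rps-20 with ekl-4, wapl-1 with htz-1, hsp-110 with rpn-3, ska-3 with rps-12, rps-15 with F36A2.9, gmps-1 with cap-2 and clsp-1 with eef-2. Of these genes, wapl-1 encodes a protein that releases cohesin from chromosomes and htz-1 the histone variant H2A.Z. The pair hsp-110 and rpn-3 joins a chaperone with a proteasome lid subunit, and clsp-1 and eef-2 join the replication checkpoint protein claspin with translation elongation factor 2. At 8 of the 20 a ribosomal protein gene was one of the pair, and none of the partners was a ribosomal protein gene.

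Genes of the cellular lists were common at members and at peaks with one start alike. They were 180 of 422 genes in member pairs (42.7%, 38.0 to 47.4%) and 200 of 552 genes of peaks at one start (36.2%, 32.3 to 40.3%). The share was 18.2% for divergent pairs without a shared peak and 10.5% for all autosomal coding genes. Genes of cytosolic ribosomal proteins had the highest share of shared peaks among 24 gene lists. Of all 82 autosomal ones, 20 (24.4%) had a peak at their start alone, also the highest share. In divergent pairs, 27 of 49 of them (55.1%, 41.3 to 68.1%) had a shared peak, with 28 in replicate 1 and 27 in replicate 2, against 12.7% of all 3330 genes in divergent pairs. The highest signals after those already named were at rps-23 with dpm-3 (324) and rps-26 with tmem-107 (298). The 24 members with a ribosomal protein gene had a median signal of 201.2 against 142 for the other 188, with 95.9 against 69.8 in replicate 1 and 113 against 75.1 in replicate 2. Without them, members still had a median 1.14 times that of peaks at one start outside ribosomal protein genes.

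Other lists for making and handling proteins varied. Of the chaperone and chaperonin genes in divergent pairs, 13 of 36 (36.1%, 22.5 to 52.4%) had a shared peak, with 15 and 12 in the replicates. Besides cct-8 and hsp-110 they include cct-5 (244) and pfd-1, a prefoldin subunit (240). Translation factors and tRNA synthetases had 8 of 45 (17.8%), led by drr-2, eef-2, eef-1A.1 (306) and eef-1G (290.5), with 8 and 7 in the replicates and an interval of 9.29 to 31.3% that holds the background. Nucleolar factors had 5 of 21 (23.8%, 10.6 to 45.1%), with 6 and 4 in the replicates, among them the pseudouridine synthase gene dkc-1 (281) and fib-1, fibrillarin (185). Proteasome and ubiquitin genes had 9 of 51 (17.6%, 9.57 to 30.3%), with 6 in replicate 1 and 9 in replicate 2, led by rpn-3, the ubiquitin-conjugating enzyme gene ubc-6 (243) and rpn-2 (219). Genes of secretion and endosomal traffic had 10 of 56 (17.9%, 10 to 29.8%), and 10 in each replicate, with sec-61.B and trap-3 followed by cogc-2 (314), a Golgi tether, and rab-18 (299.9). Vacuolar ATPase, lysosome and autophagy genes had 6 of 12 (50%, 25.4 to 74.6%), with 6 and 5 in the replicates, led by rheb-1 (258) and vha-18 (252).

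Nuclear and RNA lists, other than RNA polymerase and general transcription factor genes, lay above the background as well in the IDR set, with wide intervals. Nuclear pore and transport genes had 9 of 28 (32.1%, 17.9 to 50.7%), with 9 and 7 in the replicates, among them npp-3, the GTPase gene ran-1 (281) and ima-1, an importin (242). Splicing factors had 13 of 43 (30.2%, 18.6 to 45.1%), with 13 and 12 in the replicates, led by the kinase gene spk-1 (258), rsr-1 (236) and the SR protein genes rsp-1 and rsp-2, which share one peak (219.9). Spindle and cytoskeleton genes had 13 of 41 (31.7%, 19.6 to 47.0%), with 12 and 13 in the replicates, among them tbb-1, the meiotic kinesin gene klp-18 (314), the kinetochore gene kbp-4 (299.9) and gpr-2 (249). DNA replication, repair and cell cycle genes had 16 of 65 (24.6%, 15.8 to 36.3%), with 13 and 17 in the replicates, among them top-2, tim-1 (338), the clamp loader gene rfc-4 (306) and the cohesin gene coh-3 (229). Chromatin genes had 19 of 98 (19.4%, 12.8 to 28.3%), with 17 and 15 in the replicates, led by set-16, lin-54, set-21 and lin-53. The lower bound of their interval is at the background.

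Germline lists and mitochondrial lists followed. Maternal and germline RNA regulators had 9 of 42 (21.4%, 11.7 to 35.9%), with 10 and 11 in the replicates, led by spn-4 (279) and pos-1 (252), RNA-binding proteins of the early embryo, glh-2 (219.9), a germ granule helicase, and mex-5 (209). Meiotic chromosome genes had 4 of 19, led by the cohesin gene rec-8, which shares its peak with mex-5. Oxidative phosphorylation genes had 10 of 36 (27.8%, 15.8 to 44.0%), but 12 in replicate 1 and 7 in replicate 2; atp-1 (321), ndub-8 (199) and mev-1 (197) led. Mitochondrial and central metabolism had 4 of 21, led by gmps-1. Mitochondrial ribosomal proteins had 3 of 23 (13.0%, 4.54 to 32.1%), but 2 in replicate 1 and 1 in replicate 2, below the cytosolic ones, whose interval does not overlap theirs. RNA polymerase and general transcription factor genes had 2 of 30 (6.67%, 1.85 to 21.3%), rpb-12 (132) and rpb-3 (83.7). This share was below the background, which lies within its interval.

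Among receptor, cuticle and other family lists, the intervals of chemoreceptor genes and of the F-box, MATH and C-type lectin families lay below the background. Chemoreceptor genes had 2 of 127 (1.57%, 0.433 to 5.56%), among them sri-5, whose partner is the splicing factor gene rsr-1. The F-box, MATH and C-type lectin families had 5 of 143 (3.5%, 1.5 to 7.92%). The other lists are small and their intervals hold the 12.7% of the background. Sperm proteins had 1 of 30 (0.591 to 16.7%), spe-39, whose partner is spn-4. Cuticle collagens had 2 of 20 (2.79 to 30.1%), among them col-38, whose partner is rpl-5. Nuclear hormone receptors had 2 of 18 (3.10 to 32.8%), and neuropeptide genes 0 of 9 (up to 29.9%).

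**Figure D4:**
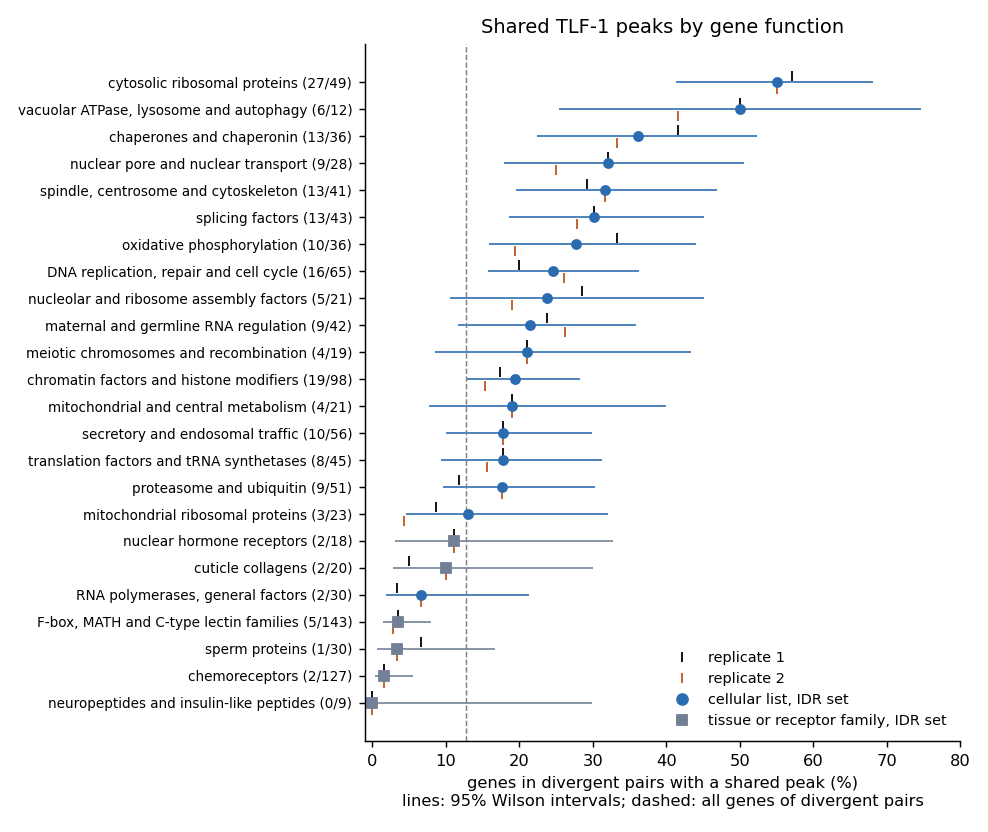
Share of genes in divergent pairs with a shared TLF-1 peak (percent) for 18 cellular lists (blue circles) and 6 tissue or receptor families (grey squares) in the IDR set, with 95% Wilson intervals and the counts in parentheses; ticks give replicates 1 and 2 and the dashed line the 12.7% of all such genes. Ribosomal proteins are at 55.1% and chemoreceptors at 1.57%.

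A second listed gene in a pair went with little further change in the share. A shared peak lay at 41 of 157 pairs with both genes in cellular lists (26.1%, 19.9 to 33.5%) and at 98 of 395 with one listed gene (24.8%, 20.8 to 29.3%). It lay at 72 of 1113 pairs with no listed gene (6.47%, 5.17 to 8.07%). Replicate 1 had 40, 96 and 72 such pairs, and replicate 2 had 40, 87 and 72. The median signals were 189, 153 and 118, in replicate 1 92.2, 75 and 59.3, and in replicate 2 97.9, 82.5 and 61.4. The first class was thus above the second in median signal in the IDR set and in both replicates, while its share of pairs with a peak was about the same.

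Partners were seldom in the same function list. Both genes were in the same cellular list at 8 of 211 pairs with a shared peak (3.79%, 1.93 to 7.30%). Without a shared peak it was 38 of 1454 pairs (2.61%, 1.91 to 3.57%). With the family lists counted as well, the order was reversed: the same 8 of 211 against 95 of 1454 (6.53%, 5.37 to 7.92%). The intervals overlap in both comparisons. Among pairs with both genes in cellular lists, the same list held both in 8 of 41 with a peak and 38 of 116 without. The 8 were sec-61.B with trap-3, his-67 with his-68, rsp-2 with rsp-1, rps-14 with rpl-36, rps-10 with rpl-24.1, rpl-39 with rps-30, snr-3 with rsp-5, and his-61 with his-62. Of these, 3 join ribosomal proteins, and the rps-14 and rpl-36 peak had a signal of 192, then 92.2 and 97.7. Lists were matched by symbol, so pairs without a matching symbol are not counted, such as the Hsp70 genes F44E5.4 and F44E5.5 with a shared peak of 302. The histone genes have near-identical copies elsewhere, as does this Hsp70 pair, so how reads were divided among the copies leaves these peaks uncertain.

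Where one gene of a pair encoded a ribosomal protein, its start was the nearer one in 7 of 21 members (33.3%, 17.2 to 54.6%), an interval that includes an even split. The median was -293 bp to the ribosomal start and -197 bp to the partner, and some pairs were near ties, such as rps-15 at -393 and F36A2.9 at -388 bp. Counted the same way, it was 5 of 15 for chromatin genes, 4 of 13 for chaperones and 3 of 9 each for splicing factors and nuclear pore genes. It was 7 of 9 for proteasome and ubiquitin genes, 6 of 8 for translation factors and tRNA synthetases and 3 of 5 for nucleolar factors. DNA replication, repair and cell cycle genes had 9 of 17 and oxidative phosphorylation genes 5 of 10. Over all pairs with one listed gene it was 44 of 99. At rps-26 the summit was at -410 bp, and at -47 bp from tmem-107. At rps-0 it was at -331 bp, and at -42 bp from rbg-3, and at rpl-31 it was at -299 bp, and at -6 bp from sac-2. The reverse was seen at rpl-12, at -18 bp with lin-54 at -375 bp. It was also seen at rpl-7A, at -67 bp with set-21 at -187 bp. The 20 peaks that lay in the window of a ribosomal protein gene alone had a median of -282 bp, close to the distance in the pairs.

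**Figure D5:**
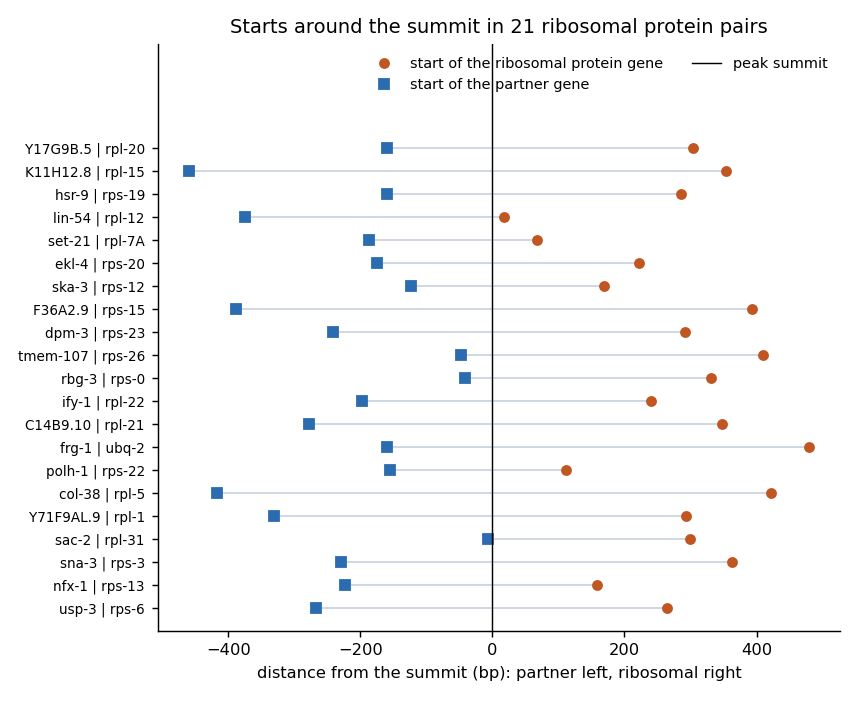
Distance in bp from the summit (line at 0) to the start of the ribosomal protein gene (orange circles, right) and to the start of its partner (blue squares, left) in the 21 members with exactly one ribosomal protein gene, ordered by signal with the strongest at the top. In 7 of the 21 the ribosomal start is the nearer one, rpl-12 and rpl-7A among them.

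Starts directly preceded by a splice acceptor word were farther from the summit over all members. The splice acceptor word TTNCAG stood directly before the start of 160 of 422 genes in member pairs (37.9%, 33.4 to 42.6%). It stood before 527 of 2908 genes of divergent pairs without a shared peak (18.1%, 16.8 to 19.6%) and 204 of 552 genes whose peak lay at their start alone (37%). Of all 17242 autosomal coding genes, 3274 (19%) had it. Among the ribosomal protein genes of member pairs it was 20 of 27 (74.1%), as in 61 of all 82 autosomal ones (74.4%). For these genes the distance differed little with the word, with medians of -301 bp at the 20 starts that have it and -274 bp at the 7 that do not, although rpl-12 and rpl-7A, whose starts were near the summit, are among the 7. Summits were a median of -243 bp from the 160 starts with the word and -176.5 bp from 264 without it, counting the tim-1 pair for each of its peaks. Leaving out ribosomal protein genes, the medians were -227.5 and -175 bp, and at peaks with one start they were -239 and -149 bp. In the 104 members with the word before exactly one start, the summit was farther from that start in 70 (67.3%, 57.8 to 75.6%). Replicate 1 had 71 of 102 (69.6%) and replicate 2 had 71 of 100 (71.0%). The word is a description of the annotation, and which of these genes are trans-spliced was not measured here.

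E2F-like and GCGCCA words were more common at member summits and at peaks with one start than in divergent gaps without a peak, whereas several other words were not. For 10 motifs, the words were sought on both strands within 100 bp of the summit, within 100 bp of the midpoint of pairs without a peak, and in the 200 bp upstream of all autosomal coding starts. The 4 E2F-like words were in 64 of 212 member windows (30.2%, 24.4 to 36.7%), in 26.3% at one start, in 7.15% of gaps without a peak and in 7.03% of all upstream windows. The word GCGCCA, which overlaps TTGGCGC by its complement, was in 53 member windows (25%), with 19.7%, 3.92% and 3.83% in the other sets. This word was taken up after it had led at promoter summits in these same data. Its higher share at summits is therefore in part given by that choice. Members had 27.9% in replicate 1 and 26.4% in replicate 2. The NRF1-like words GCGCATG or GCGCACG were in 9.91% of members and 2.89% of gaps without a peak, and the GC box GGGCGG in 10.4% and 5.85%.

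The TATA box word TATAAA was less common at members, in 16% (11.7 to 21.6%) against 28.9% of gaps without a peak and 25.3% of all upstream windows, and it was in 15.2% at one start. The repeat GAGAGA was in 22.2%, 12.7% and 13.7% in the same order, and 24.4% at one start. The words CCAAT (27.8% and 30.8%), CACGTG (4.25% and 3.99%), and TTTGAA or TTCGAA (58.5% and 59.8%) were about as common at members as in gaps without a peak. The run TTTTTT was in 73.6% of members and 71.1% of those gaps, but in 56.8% of windows at one start, with 71.2% against 58.1% in replicate 1 and 73.6% against 58.5% in replicate 2. Base composition moved with these counts: the median GC content was 40.3% at members, 39.8% at one start, 32.8% in gaps without a peak and 33.3% upstream of all starts. Its part in the motif shares was not tested. At the midpoint of member gaps, where the comparison with other gaps does not use the summit, the E2F-like words were in 24.1% and GCGCCA in 19.3%.

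The members were found in both replicates. All 212 overlapped a peak in each replicate's full list, which was largely fixed in advance because the IDR set was derived from both replicates. Of the members, 164 (77.4%, 71.3 to 82.5%) ranked within the 1880 strongest of both, against 396 of 558 peaks at one start (71.0%, 67.1 to 74.6%). The summit moved by a median of 13 bp in replicate 1 and 7.5 bp in replicate 2 from its place in the IDR set. Taken alone, replicate 1 gave 208 pairs, of which 186 were IDR pairs (89.4% of its pairs and 88.2% of theirs), and replicate 2 gave 199, of which 184 were (92.5% and 87.2%). Signals in the replicates had a Spearman rho of 0.83 across the members and 0.70 across peaks at one start, a description over peaks of the same 2 libraries. The largest differences in rank were at weak members. The peak between Y54G9A.7 and bub-3, a mitotic checkpoint gene, had a signal of 27.4 in replicate 1 and 90.0 in replicate 2, and that of hpr-17 and F32A11.1 had 58.3 and 24.7. Those of scav-3 with Y49E10.21, nmad-1 with hach-1 and fbxc-44 with C16A11.2 differed by similar amounts.

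Members were spread over all autosomes. The share of divergent pairs with a shared peak was 18.6% on chromosome III (54 of 290, 14.6 to 23.5%), 15.6% on I, 13.3% on IV, 9.57% on II and 8.27% on V (35 of 423, 6.01 to 11.3%). Neighbours in that order have overlapping intervals, whereas III and V do not. The order was the same in replicate 1 and in replicate 2. In the middle of 3 equal parts of each autosome the share was 92 of 680 (13.5%) and in the outer parts 119 of 985 (12.1%). At 33 members (15.6%) a gene not annotated as protein-coding overlapped the gap between the starts. At 6 (2.83%) it was a small RNA gene, here a tRNA, snoRNA, snRNA, miRNA or rRNA gene. These include the spliced leader gene sls-2.8 between tim-1 and Y75B8A.23. The same shares were not counted in pairs without a peak, so these counts only describe the members.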

How the data were processed

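Peaks of tagged TLF-1 came from 2 biological replicates of 1 group. Per the README files, the authors made 1 list per replicate from its alignments and a common control, a pooled list, and from these the IDR set of 1880 peaks, all on ce11. The caller, the aligner and the IDR threshold were not given in the sources used here, and depth is unknown. The signal value of each peak is the authors' deposited one, of unstated scale; it ranks and describes peaks of the same list. The -log10 q-value deposited beside it entered no result. Summits came from the deposited offsets.

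Gene models were Ensembl release 115 on WBcel235, the assembly of ce11, and product names and sequence were from RefSeq. The nearest divergent pair was taken where several were in reach. Function lists matched gene symbols by pattern. Members, lists, motifs and tests were chosen with earlier results of these data known, the lists were corrected for wrongly matched symbols after the files were read, the splice acceptor word and GCGCCA were taken up after results were seen, and nothing here is independent support for those results. Named pairs were the 20 strongest, the 3 closest and 3 widest, the 5 with the largest replicate difference in rank, up to 4 leading genes a list, pairs within one list, and peaks at the window's limits; other ribosomal and splice acceptor examples were chosen after their values were seen. Sequences were chosen from the 20 strongest. Alternatives were other windows, all transcript starts, peak centres, stronger peaks, each replicate and a shorter motif window. On simulated peaks placed among 1665 pairs, 200 of 200 placed in shared windows and 200 of 200 placed far from coding starts were assigned correctly. The shared windows were those that the assignment itself uses, and no set was placed at single starts. This checks only that the code follows the rule. The tools were scipy 1.17.1, pandas 2.3.3 and numpy 2.4.6 in Python 3.11.15, with matplotlib 3.10.9 for figures.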

Additional observations from a re-analysis of the deposited data

How the results depend on the processing

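Of 163 values recomputed under other settings, 127 moved by less than the interval or the replicate spread of the reported value (counts by less than 1.5 times), and 36 moved by more. With 250 bp upstream there were 94 members, 17% of promoter-window peaks and 10.7% of pairs, a median spacing of 276.5 bp, 99.5 bp to the nearer start, a signal ratio of 1.15, and 37.2% of genes in cellular lists; the NRF1-like share was 6.38% and the TTTGAA or TTCGAA share 68.1%. With 1000 bp upstream the share of promoter-window peaks was 32.3%, the spacing 517.5 bp, the nearer start 165 bp away and the signal ratio 1.26. The stronger 940 peaks gave 137 members, 8.17% of pairs, 419 bp, 152 bp, a ratio of 1.14 and 48.9% in cellular lists. The 1280 peaks strong in both replicates gave 9.79% of pairs and 144 bp. All transcript starts gave 140.5 bp and a ratio of 1.20, and peak centres 139 bp. Leaving out a replicate gave spacings from 397 to 405.5 bp, 137.5 to 138 bp to the nearer start and ratios from 1.14 to 1.16. Searching only 50 bp to either side of the summit lowered the shares, by its construction, to 22.6% for E2F-like words, 4.72% for TATAAA, 14.6% for CCAAT, 6.13% for GGGCGG, 33.5% for TTTGAA or TTCGAA, 11.8% for GAGAGA and 31.1% for TTTTTT. A shorter list or window holds fewer members and a wider window admits wider spacings and distances by construction; for the other values the cause was not tested. The signal ratio stayed above 1 in every setting run. No paired analysis was possible because the replicates form 1 group and no result comes from a test. With depth unknown, a pair without a listed summit cannot be called unbound.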

Other observations

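Words of 8 bases that recurred at member summits were counted after the data were seen, so the counts describe the members only. Those listed here were in under 1% of the midpoint windows of divergent pairs without a peak. Every listed word meets that limit, so its low share in those gaps is not a result. Member windows were centred on the summit, not on the midpoint. The word CTGGCGCA or its complement was in 19 of 212 member windows (8.96%), in 5.20% of windows at one start and in 0.34% of gaps without a peak. It overlaps the GCGCCA word of the report. Most of the other recurring words do not contain GCGCCA, but they are not all separate from it. CGCCAGCA, for example, shares most of its members with GCGCCAGC, which contains that word. GCACTTGC was in 13 members (6.13%), among them rpl-12 with lin-54, tbb-1 with rib-2, rab-18 with kbp-4 and fib-1 with mut-15, against 1.61% at one start and 0.83% of gaps without a peak. It was in 5.77% of the members of replicate 1 and 5.47% of those of replicate 2. GAGCGCAC was in 12 members (5.66%), rpl-20 with Y17G9B.5 and npp-3 with top-2 among them, against 1.79% and 0.96%. In the rpl-12 and tbb-1 sequences both words overlap within one stretch, so their counts are not separate. ACCGTACT was in 16 members (7.55%), including sec-61.B with trap-3, ndk-1 with F25H2.6, clsp-1 with eef-2 and rps-10 with rpl-24.1, against 2.69% and 0.76%. CGGGTCTC was in 16 members (7.55%), against 3.58% and 0.89%. Of all upstream windows of autosomal coding starts, 0.62% held GCACTTGC, 0.51% GAGCGCAC and 0.70% ACCGTACT.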
